A study of Homo sapiens with 24 samples.

Results

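Nucleotide synthesis in AGS cells is described here through 32 genes for enzymes that make or recycle the building blocks of RNA and DNA. They were chosen by name from the 23368 genes of the count table. They fall into 4 steps: 12 genes of purine synthesis (PRPS1, PRPS2, PPAT, GART, PFAS, PAICS, ADSL, ATIC, IMPDH1, IMPDH2, GMPS and ADSS), 6 of pyrimidine synthesis (CAD, DHODH, UMPS, CTPS, CTPS2 and CMPK1), 7 of deoxynucleotide synthesis (RRM1, RRM2, TYMS, DTYMK, DUT, DCTD and NME1) and 7 of salvage (HPRT1, APRT, UCK1, UCK2, TK1, TK2 and DCK). The table's ADSS and CTPS are now named ADSS2 and CTPS1. All 32 were among the 13947 genes tested.

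AGS is an established line from a human gastric adenocarcinoma, labelled as wild type and grown in medium with serum. RNA was collected after 24 h from 6 groups of 4 replicates: cells without inhibitor, cells with PI103 at 0.7 µM, with PD0325901 at 0.035 µM or with (5Z)-7-oxozeaenol (here oxozeaenol) at 0.5 µM, and cells with PI103 plus oxozeaenol or PI103 plus PD0325901. Both compounds of a combination were given at 50% of these concentrations. The target of PD0325901 is MEK, the kinase upstream of ERK, that of oxozeaenol is TAK1, and PI103 blocks PI3 kinase together with mTOR. All groups come from the same single line, and the labels do not say whether the controls received solvent. The series title speaks of drug-induced metabolic change, and the question here is which nucleotide genes moved with each inhibitor.

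Purine synthesis builds the purine ring stepwise on phosphoribosyl pyrophosphate, which the PRPS enzymes make, and ends in AMP and GMP. Pyrimidine synthesis first makes the ring, with CAD and DHODH, and then joins it to the same sugar donor. Ribonucleotide reductase turns ribonucleotides into deoxynucleotides, and the salvage enzymes reuse free bases and nucleosides. Dividing cells need all of these supplies, and MYC, E2F factors and mTOR signalling are known to act on many of the genes.

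The libraries held between 38057638 and 84226380 counts in genes, and the members took 0.260% to 0.460% of them. The 6 epithelial markers summed to 4620 to 7530 CPM, which are counts scaled by library size. KRT8 was the highest of them, at group means of 2660 to 3300 CPM, and CDH1 the lowest, at 13.3 to 20.5 CPM. The endothelial markers summed to at most 0.452 CPM. Of the leukocyte markers, LYZ alone gave a level above 1 CPM, with group means from 44.9 CPM in control to 390.0 CPM with PD0325901. PTPRC, which marks leukocytes, had a group mean of at most 0.0400 CPM. Of the fibroblast markers, COL1A1 was the highest, at group means of 8.69 to 33.0 CPM. Of 5 ERK target genes, 4 fell with PD0325901: DUSP6 fell by 5.18 on the log2 scale, and ETV4 fell by 5.92. Of the same 5, 4 fell with oxozeaenol, 3 with PI103 and 4 in each combination. In addition, 1 rose with PI103 and 1 with PI103 plus PD0325901. Their median log2 change was -4.1 with PD0325901, -1.74 with oxozeaenol and -1.28 with PI103. Of all genes, 25.2% to 32.6% were called lower in the 5 treatments. Of 4 PI3 kinase readout genes (INSR, IRS2, PIK3IP1 and SESN1), 3 were tested and 0 fell. With PI103 3 rose, with PD0325901 2 and with oxozeaenol 1. PI103 plus oxozeaenol gave 2 higher and PI103 plus PD0325901 3, beside 25.7% to 32.2% of all genes higher in the 5 treatments. One pair of libraries stood apart: replicate 2 with PD0325901 was the lowest of its group for 26 of the 32 members, and replicate 2 with PI103 plus PD0325901 for 27. Replicate 4 was the lowest for 22 members with oxozeaenol and for 20 with PI103 plus oxozeaenol.

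Levels below are CPM of the library size after scaling by the trimmed mean of M-values (TMM), in the order of replicates 1 to 4. Fold changes are log2 values with their standard error (SE), and a gene was called at an adjusted p under 0.05 in edgeR's quasi-likelihood F test, adjusted over all 13947 genes by the Benjamini-Hochberg method. "Rose" and "fell" are used for called genes. The 5 treatments were compared with the same 4 control libraries, so their results are not independent of each other.

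The members fell most widely where PD0325901 was present. With PD0325901 alone, 19 of the 32 (59.4%) fell and 2 (6.25%) rose, beside 58.6% of all genes tested that were called (29.9% lower, 28.7% higher). With PI103 plus PD0325901, 21 (65.6%) fell and 1 (3.12%) rose, beside 64.8% of all genes called (32.6% and 32.2%). With PI103 alone, 12 (37.5%) fell and 6 (18.8%) rose, beside 51.4% of all genes called (25.2% and 26.2%). Oxozeaenol gave 8 (25%) lower and 7 (21.9%) higher, shares close to the 26.1% and 25.7% of all genes (51.9% called). In PI103 plus oxozeaenol there were 11 (34.4%) lower and 10 (31.2%) higher, beside 55.6% of all genes called (27.9% and 27.7%). The median change of the members was -0.31 with PD0325901 and -0.45 with PI103 plus PD0325901, where the median over all genes was -0.02 and 0.01. It was -0.13 with PI103, 0.02 with oxozeaenol and 0.06 with their combination, where all genes had medians of 0.02 in each. With upper-quartile scaling the median of all genes under PI103 plus PD0325901 moved to 0.15. The members then split into 17 lower and 4 higher, beside 3536 lower and 5541 higher of all 13947 genes. Without replicate 2 of both groups with PD0325901, the counts were 17 lower and 2 higher with PD0325901, beside 3966 and 3676 of 14051 genes. In the same fit, PI103 plus PD0325901 gave 20 lower and 3 higher, beside 4386 and 4345 of all genes.

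**Figure D1:**
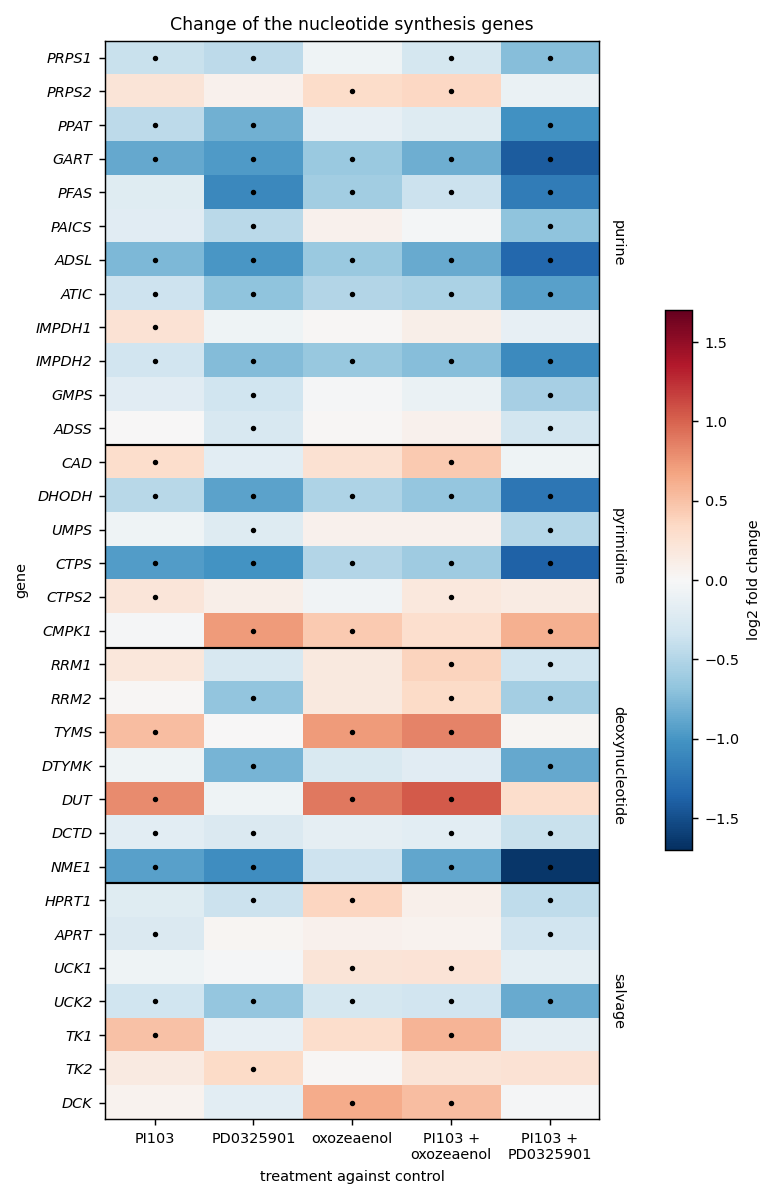
Log2 fold change against control of the 32 nucleotide synthesis genes (rows, by step) in the 5 treatments (columns, 4 replicates each). Blue is lower, red is higher, and a dot marks an adjusted p under 0.05 in edgeR's quasi-likelihood test. Blue cells with dots are most frequent in the purine rows and in the columns with PD0325901 (19 and 21 members lower).

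Most purine genes fell where PD0325901 was present. Under PI103 plus PD0325901, 10 of 12 (83.3%) were lower and 0 higher, with a median change of -0.83, beside 32.6% lower and 32.2% higher among all genes. With PD0325901 alone it was again 10 lower and 0 higher, with a median of -0.57, beside 29.9% and 28.7%. The counts were 6 lower and 1 higher with PI103, 5 and 1 with oxozeaenol, and 6 and 1 with PI103 plus oxozeaenol (50%, 41.7% and 50% lower, beside 25.2%, 26.1% and 27.9% of all genes), with medians of -0.27, -0.10 and -0.26. PRPS2, which makes the sugar donor alongside PRPS1, was called lower in none of the 5 treatments. Its 2 calls were rises of 0.31 (SE 0.111, adjusted p = 0.0203) with oxozeaenol and of 0.35 (SE 0.111, adjusted p = 0.0101) with PI103 plus oxozeaenol, and its groups overlapped with control in both. The oxozeaenol call was lost without control replicate 2 or 4 or oxozeaenol replicate 1 or 2 (adjusted p up to 0.0881), and that of the combination without control replicate 4 (0.0504). With PI103 its change of 0.21 had adjusted p = 0.11, or 0.0226 with the replicate number as a block.

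GART, a protein with 3 enzyme activities of the early purine ring (chr21:33503931-33543491, minus strand, GRCh38), had 322, 351, 315 and 349.6 CPM in control. With PI103 it had 190.2, 189, 185 and 168 CPM, and with PD0325901 181, 143, 179 and 181 CPM. With oxozeaenol the values were 217, 233, 241 and 171 CPM. All 12 treated libraries lay below all 4 controls. PI103 plus oxozeaenol gave 186, 200.3, 193 and 172 CPM, and PI103 plus PD0325901 gave 124, 111, 137 and 132 CPM, the lowest of the 6 groups. GART fell by 0.87 (SE 0.0989, adjusted p = 6.18e-08) under PI103, by 0.97 (SE 0.0991, adjusted p = 6.83e-09) under PD0325901 and by 0.64 (SE 0.0986, adjusted p = 6.75e-06) with oxozeaenol. In the combinations it fell by 0.83 (SE 0.0988, adjusted p = 9.28e-08) with oxozeaenol and by 1.41 (SE 0.1, adjusted p = 6.74e-12) with PD0325901. The latter left 2.66 times less GART message than in control.

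ADSL, which releases fumarate in a late ring step and in the step that makes AMP (chr22:40346500-40390463, plus strand), had 82.4, 90.5, 74.0 and 93.9 CPM in control. It had 52.9, 52.9, 46.5 and 48.8 CPM with PI103, 44.5, 29.4, 50.6 and 47.8 CPM with PD0325901, and 53.4, 60.0, 61.6 and 45.3 CPM with oxozeaenol. The combinations gave 46.5, 50.3, 46.9 and 45.1 CPM with oxozeaenol and 32.9, 27.7, 38.0 and 36.5 CPM with PD0325901. No treated library reached the lowest control. The changes were -0.76 (SE 0.128, adjusted p = 1.91e-05), -0.98 (SE 0.128, adjusted p = 3.5e-07) and -0.63 (SE 0.127, adjusted p = 0.000193) for PI103, PD0325901 and oxozeaenol. They were -0.85 (SE 0.128, adjusted p = 3.45e-06) and -1.34 (SE 0.129, adjusted p = 1.65e-09) for the combinations with oxozeaenol and with PD0325901. In GENCODE release 29, 18.9% of the exon length of ADSL overlaps another gene on the same strand, AL022238.4.

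PFAS, the amidotransferase between the GART steps (chr17:8247618-8270491, plus strand), separated the inhibitors. It had 38.7, 37.2, 36.7 and 36.9 CPM in control and 30.3, 35.6, 29.7 and 34.6 CPM with PI103, where the change of -0.20 (SE 0.153, adjusted p = 0.282) did not pass. With PD0325901 it had 21.9, 12.6, 17.7 and 17.9 CPM and fell by 1.09 (SE 0.155, adjusted p = 1.61e-06). Oxozeaenol gave 28.6, 22.0, 24.5 and 24.1 CPM, a fall of 0.59 (SE 0.154, adjusted p = 0.00232). Between PI103 and PD0325901 the groups did not overlap, and PFAS was higher with PI103 by 0.89 (SE 0.155, adjusted p = 4.56e-05). PI103 plus PD0325901 gave 18.4, 9.98, 19.7 and 17.6 CPM and a fall of 1.19 (SE 0.156, adjusted p = 3.66e-07). With PI103 plus oxozeaenol it had 25.4, 28.956, 28.6 and 32.8 CPM and a fall of 0.37 (SE 0.153, adjusted p = 0.042). That last call was lost without any 1 of the 4 control replicates or of replicates 1, 2 and 3 of the combination (adjusted p up to 0.111).

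PPAT, which commits the sugar donor to the purine ring, and PAICS, which works later in the ring, lie head to head on chromosome 4, with RefSeq start sites 137 bases apart. PPAT fell by 0.44 (SE 0.124, adjusted p = 0.00414) under PI103, by 0.82 (SE 0.124, adjusted p = 3.37e-06) under PD0325901 and by 1.03 (SE 0.125, adjusted p = 8.05e-08) with both, from a control mean of 80.7 ± 9.2 CPM (SD, n = 4). PAICS fell by 0.45 (SE 0.112, adjusted p = 0.00116) under PD0325901 and by 0.69 (SE 0.112, adjusted p = 7.72e-06) with both, from 459 ± 28.2 CPM (SD, n = 4). Neither was called with oxozeaenol or with PI103 plus oxozeaenol. With PI103 alone PAICS changed by -0.19 (SE 0.112, adjusted p = 0.166). The annotation names 7 PAICS pseudogenes, whose reads could be confused with it.

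Promoter sequences of 6 members are shown as examples of the motifs searched, picked with the results known. They are from RefSeq on GRCh38.p14, which holds promoters of 30 members (43 start sites; IMPDH2 and ADSL had no match). Short motifs of factors known to act on such genes were searched on both strands from 250 bases before to 50 after each start, and 1 base may belong to more than 1 motif. Capitals mark the motif of each line: the GC box GGGCGGG in PPAT, CCAAT in GART and RRM2, the E-box CACGTG in ATIC, and the E2F-type motifs TTTCCCGC and TTTGGCGC in DUT and TTTCCCGC in TYMS, as written or as the reverse complement. The PPAT stretch fills most of the gap to PAICS. By GENCODE release 29, all 30 bases of the GART, ATIC and DUT stretches lie in annotated untranslated regions of transcripts. So do 28 of 30 bases of the TYMS stretch, and 0 of PPAT and RRM2. The strand is that of the gene.
PPAT, chr4:56435616-56435740, minus strand: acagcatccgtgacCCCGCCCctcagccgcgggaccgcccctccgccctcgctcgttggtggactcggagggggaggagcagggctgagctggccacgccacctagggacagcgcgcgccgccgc
GART, chr21:33542987-33543016, minus strand: gCCAATtcggtctctcgccttcctgATTGG
ATIC, chr2:215311999-215312028, plus strand: cagggccggcgggcCACGTGataagcccgg
RRM2, chr2:10122619-10122729, plus strand: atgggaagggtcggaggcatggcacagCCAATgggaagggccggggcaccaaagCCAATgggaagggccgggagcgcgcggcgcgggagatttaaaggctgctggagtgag
DUT, chr15:48332151-48332180, plus strand: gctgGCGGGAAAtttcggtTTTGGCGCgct
TYMS, chr18:657602-657631, plus strand: cgcgggacggccGCGGGAAAaggcgcgcgg

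The E-box CACGTG was found in 6 of the 30 members (ATIC, DCK, DHODH, NME1, PAICS and PPAT), where 7.26% of all 35116 promoters hold it. CCAAT was found in 10 (CAD, DHODH, DTYMK, GART, NME1, PRPS1, RRM1, RRM2, TK1 and UCK2), beside 34.6% of all promoters. TTTCCCGC was found in DUT, PRPS2 and TYMS (1.63% of all promoters) and TTTGGCGC in DCK, DUT and GART (0.652%). GGGCGGG occurred in 20 members, beside 33.1% of all promoters, and the ATF4-type TGATGNAA in 1, DCTD, beside 3.62%. A member was counted if any of its start sites held the motif, whereas the share of all promoters is per single start site. Members with several start sites had more than 1 window, so the member counts run high beside those shares. The counts describe letters and are not measured binding.

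Later purine steps also fell. ATIC, which closes the ring, fell in each comparison with control, by 0.36 (SE 0.114, adjusted p = 0.0109) with PI103, 0.68 (SE 0.115, adjusted p = 1.44e-05) with PD0325901, 0.50 (SE 0.114, adjusted p = 0.000735) with oxozeaenol, 0.53 (SE 0.114, adjusted p = 0.000317) with PI103 plus oxozeaenol and 0.93 (SE 0.115, adjusted p = 1.17e-07) with PI103 plus PD0325901. IMPDH2, the main enzyme at the branch to GMP, went from 351 ± 9.46 CPM in control to 166 ± 22.9 CPM with PI103 plus PD0325901 (SD, n = 4), a fall of 1.08 (SE 0.112, adjusted p = 5.8e-09). Its fall of 0.33 with PI103 (SE 0.111, adjusted p = 0.0147) was lost without PI103 replicate 4 (adjusted p = 0.0504). Its paralog IMPDH1 went the other way with PI103, by 0.25 (SE 0.0946, adjusted p = 0.0281), a call lost without control replicate 2, 3 or 4 or PI103 replicate 2 or 4 (adjusted p up to 0.133). IMPDH1 has 7 named pseudogenes. PRPS1 fell in 4 treatments, by 0.73 (SE 0.0872) with PI103 plus PD0325901, and GMPS, which makes GMP, and ADSS, which turns IMP towards AMP, fell in the 2 groups with PD0325901. GMPS fell by 0.34 and 0.57 there, and ADSS fell by 0.27 and 0.31. With PI103 GMPS changed by -0.20 (adjusted p = 0.102, or 0.0406 with the replicate block). The ADSS call with PD0325901 alone (adjusted p = 0.0196) was lost without PD0325901 replicate 1 or 2 or control replicate 3 (adjusted p up to 0.148).

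In the pyrimidine step, DHODH and CTPS fell in each treatment, while CAD, CTPS2 and CMPK1 were only called higher. The step counted 2 lower and 2 higher of 6 with PI103, 3 and 1 with PD0325901, 2 and 1 with oxozeaenol, 2 and 2 with PI103 plus oxozeaenol and 3 and 1 with PI103 plus PD0325901. The 33.3% lower without PD0325901 lies near the 25.2% to 27.9% of all genes, and the 50% with it stands beside 29.9% and 32.6%. UMPS, which makes UMP, accounted for the third lower gene in both groups with PD0325901, at -0.22 (SE 0.0952, adjusted p = 0.0464) alone and -0.48 (SE 0.0954, adjusted p = 9.23e-05) in the combination. Its call with PD0325901 alone was lost without control replicate 1, 3 or 4 or PD0325901 replicate 1, 2 or 4 (adjusted p up to 0.316).

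CTPS, which turns UTP into CTP (chr1:40979335-41012565, plus strand), had 189, 177, 178 and 177 CPM in control. It had 97.9, 101, 89.8 and 84.0 CPM with PI103 and 98.6, 70.7, 101 and 87.4 CPM with PD0325901, close to each other. Oxozeaenol left more, at 146, 130.04, 127 and 107 CPM. The fall was 0.95 (SE 0.105, adjusted p = 3.9e-08) with PI103, 1.01 (SE 0.105, adjusted p = 9.45e-09) under PD0325901 and 0.50 (SE 0.105, adjusted p = 0.000284) with oxozeaenol. In the combinations CTPS had 116, 129, 119 and 110.0 CPM with oxozeaenol, a fall of 0.60 (SE 0.105, adjusted p = 2.45e-05), and 74.1, 58.4, 75.8 and 71.1 CPM with PD0325901, a fall of 1.37 (SE 0.106, adjusted p = 3.3e-11). CTPS2, which catalyses the same reaction, rose instead by 0.20 (SE 0.0692, adjusted p = 0.0169) under PI103 and by 0.17 (SE 0.0692, adjusted p = 0.0358) with PI103 plus oxozeaenol. The first of these was lost without control replicate 2 or 4 or PI103 replicate 3 (adjusted p up to 0.062), and the second without control replicate 2 or 4 or replicate 1, 2 or 3 of the combination (up to 0.106). With the replicate number as a block CTPS2 was also called with PI103 plus PD0325901 (0.14, adjusted p = 0.0404, against 0.0801 without the block).

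DHODH, the mitochondrial enzyme of the pathway (chr16:72008588-72027664, plus strand), was among the least abundant members per length, at 1.75 ± 0.0957 CPM per kb of exon in control (SD, n = 4). It had 12.956, 12.032, 12.1 and 11.3 CPM in control, 8.96, 9.12, 8.07 and 8.72 CPM with PI103, 7.69, 5.01, 7.11 and 6.05 CPM with PD0325901 and 8.98, 8.83, 9.28 and 6.62 CPM with oxozeaenol. All 12 of these treated libraries lay below the controls. The combinations had 7.89, 7.9987, 7.63 and 7.10 CPM with oxozeaenol and 6.19, 3.78, 5.76 and 4.95 CPM with PD0325901. DHODH fell by 0.47 (SE 0.134, adjusted p = 0.00445), 0.91 (SE 0.135, adjusted p = 2.77e-06) and 0.52 (SE 0.134, adjusted p = 0.00203) with PI103, PD0325901 and oxozeaenol. With PI103 plus oxozeaenol it fell by 0.66 (SE 0.134, adjusted p = 0.000173), and with PI103 plus PD0325901 by 1.22 (SE 0.137, adjusted p = 1.98e-08).

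CMPK1, which phosphorylates CMP and UMP (chr1:47333797-47378839, plus strand), rose where most members fell. It had 134, 132, 159 and 112 CPM in control and 136, 122, 148 and 124 CPM with PI103, which overlap throughout. PD0325901 gave 182, 279.9, 207 and 214 CPM and oxozeaenol 164, 184, 207 and 173 CPM, all above the controls. CMPK1 rose by 0.72 (SE 0.137, adjusted p = 7.14e-05) under PD0325901 and by 0.44 (SE 0.136, adjusted p = 0.00897) with oxozeaenol. With PI103 plus PD0325901 it had 158, 271, 189 and 195 CPM, a rise of 0.60 (SE 0.136, adjusted p = 0.000445), with 1 library inside the control range. PI103 plus oxozeaenol gave 155, 175, 165 and 157 CPM, a change of 0.28 (SE 0.136) with adjusted p = 0.084, or 0.0391 with the replicate number as a block. In both groups with PD0325901, replicate 2 held the highest CMPK1 and the lowest GART.

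CAD, which carries out the opening reactions of the ring, rose by 0.30 (SE 0.112, adjusted p = 0.0259) under PI103 and by 0.45 (SE 0.112, adjusted p = 0.00138) with PI103 plus oxozeaenol. The PI103 call was lost without control or PI103 replicate 2 or 4 (adjusted p up to 0.0677). With oxozeaenol alone CAD changed by 0.26 (SE 0.112), with adjusted p = 0.0529, or 0.0241 with the replicate block. It was not called in either group with PD0325901, at -0.19 (SE 0.112, adjusted p = 0.158) and -0.07 (SE 0.112, adjusted p = 0.616).

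**Figure D2:**
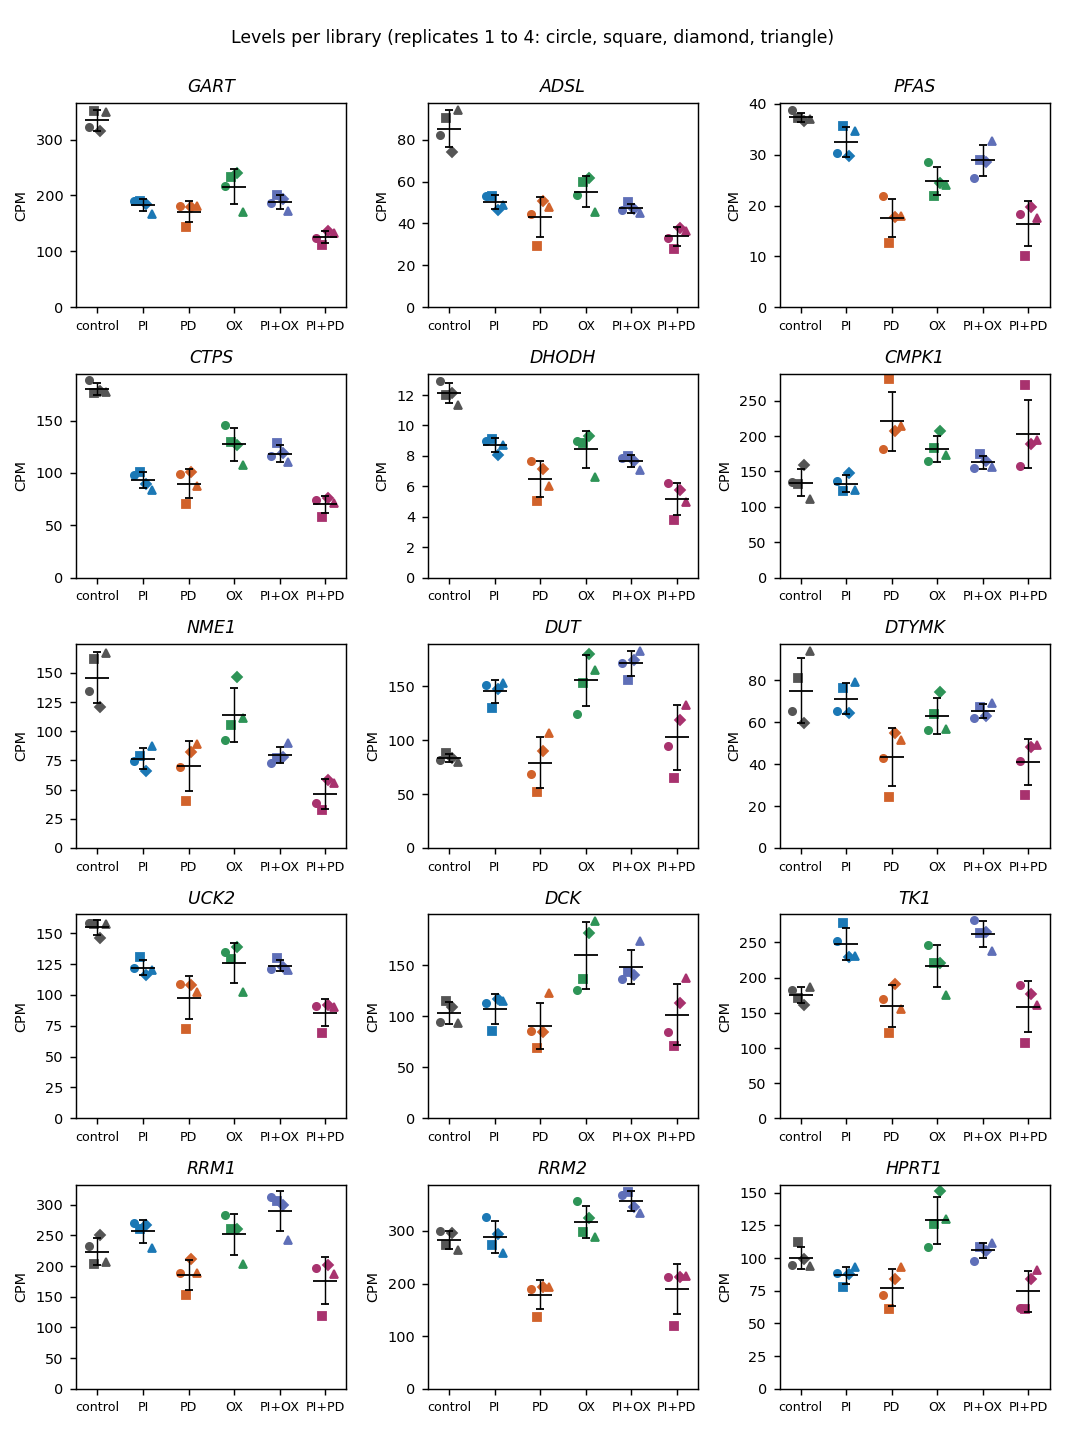
Level (CPM, linear axis from 0) of 15 nucleotide synthesis genes in each of the 24 libraries. PI is PI103, PD is PD0325901, OX is oxozeaenol, symbols are replicates, and bars are the mean and SD of 4. GART, ADSL, CTPS and DHODH lie below control in each treated library, whereas DUT lies above control with PI103, oxozeaenol and both.

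In the deoxynucleotide step, 4 of 7 genes (57.1%) fell and 0 rose with PD0325901, and 5 (71.4%) fell and 0 rose with PI103 plus PD0325901, beside 29.9% and 32.6% of all genes lower. PI103 plus oxozeaenol gave 2 lower and 4 higher (57.1% higher, beside 27.7%). Oxozeaenol gave 0 lower and 2 higher, and PI103 2 lower and 2 higher, where 28.6% higher lies near the 25.7% and 26.2% of all genes. The difference between single agents was itself tested. With PD0325901, 6 of 7 (85.7%) were lower than with oxozeaenol, beside 13.4% of all genes. With PI103, 5 of 7 (71.4%) were higher than with PD0325901, beside 21.7% of all genes.

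DUT, which removes dUTP before it can enter DNA (chr15:48331011-48343373, plus strand), had 81.6, 88.1, 83.8 and 79.8 CPM in control. It had 151, 129.8, 147 and 153 CPM with PI103, 124, 153, 179.6 and 165 CPM with oxozeaenol, and 172, 156, 174 and 183 CPM with both. None of these 12 libraries overlapped the controls. PD0325901 gave a wide spread around the control level, 69.0, 51.8, 89.9 and 106 CPM, and PI103 plus PD0325901 gave 94.6, 64.7, 119 and 133 CPM. DUT rose by 0.80 (SE 0.180, adjusted p = 0.000669) with PI103, 0.90 (SE 0.181, adjusted p = 0.000221) with oxozeaenol and 1.04 (SE 0.181, adjusted p = 3.57e-05) with both. It changed by -0.07 (SE 0.180, adjusted p = 0.753) under PD0325901 and by 0.30 (SE 0.180, adjusted p = 0.145) with PI103 plus PD0325901. The interval with PD0325901 ran from -0.44 to 0.30 at 95%. DUT has 8 named pseudogenes, and 14.5% of its exon length lies opposite AC023355.1.

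TYMS, which makes dTMP, was not among the genes chosen for full values and was picked after its values were seen. It rose by 0.53 (SE 0.148, adjusted p = 0.00436) with PI103, 0.72 (SE 0.148, adjusted p = 0.000256) with oxozeaenol and 0.84 (SE 0.148, adjusted p = 3.2e-05) with both. It changed by 0.01 (SE 0.147, adjusted p = 0.968) with PD0325901. As much as 46.6% of its exon length lies opposite TYMSOS and ENOSF1, so antisense reads may be mixed in if counting ignored strand.

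RRM2, the cell-cycle-regulated subunit of ribonucleotide reductase (chr2:10120698-10131419, plus strand), had 299, 273, 296 and 264 CPM in control. It had 190.2, 137, 193 and 193 CPM with PD0325901, and 213, 119, 213 and 215 CPM with PI103 plus PD0325901, with no overlap. PI103 gave 327, 274, 293 and 258 CPM and oxozeaenol 357, 298, 325 and 289 CPM, both overlapping control. The 4 libraries with PI103 plus oxozeaenol, at 369, 375, 346 and 335 CPM, lay above it. RRM2 fell by 0.66 (SE 0.138, adjusted p = 0.000192) under PD0325901 and by 0.57 (SE 0.138, adjusted p = 0.000731) with PI103 plus PD0325901, and rose by 0.33 (SE 0.138, adjusted p = 0.0433) with PI103 plus oxozeaenol. The rise was lost without control replicate 2 or 4 or replicate 1, 2 or 3 of that combination (adjusted p up to 0.104). PI103 changed it by 0.03 (SE 0.137, adjusted p = 0.89) and oxozeaenol by 0.17 (SE 0.137, adjusted p = 0.325). On the same strand, AC007240.1 overlaps 20.2% of its exon length.

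RRM1, the large subunit (chr11:4094707-4138876, plus strand), had 233, 203, 251 and 207 CPM in control, 269.9, 259.6, 267 and 229.6 CPM with PI103, 188, 153, 212 and 188 CPM with PD0325901 and 283, 260.2, 260.0 and 204 CPM with oxozeaenol. No single agent gave a call, with adjusted p = 0.221, 0.0874 and 0.293. PI103 plus oxozeaenol gave 312, 306, 299 and 242 CPM, a rise of 0.37 (SE 0.134, adjusted p = 0.0195) with 1 library inside the control range, and PI103 plus PD0325901 gave 197, 119, 202 and 187 CPM, a fall of 0.34 (SE 0.134, adjusted p = 0.0272). The rise was lost without control replicate 2 or 4 or replicate 1 of that combination (adjusted p up to 0.0616), and the fall without control replicate 1 or 3 or replicate 2 of the combination (adjusted p up to 0.146). With the replicate block, RRM1 was also called lower with PD0325901 (-0.27, adjusted p = 0.039).

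NME1, a nucleoside diphosphate kinase (chr17:51153536-51162428, plus strand), showed the largest fall of the members. It had 134, 162, 121 and 167 CPM in control and 38.2, 32.9, 58.2 and 55.5 CPM with PI103 plus PD0325901, a fall of 1.66 (SE 0.202, adjusted p = 1.51e-07), or 3.16 times less message. PI103 gave 74.3, 79.0, 65.7 and 87.7 CPM and a fall of 0.93 (SE 0.198, adjusted p = 0.000397). PD0325901 gave 69.7, 40.2, 82.6 and 89.2 CPM and a fall of 1.05 (SE 0.198, adjusted p = 7.96e-05). The combination of PI103 and oxozeaenol gave 73.2, 76.8, 78.3 and 89.6 CPM and a fall of 0.88 (SE 0.198, adjusted p = 0.000612). Oxozeaenol alone, at 92.4, 105, 146 and 112 CPM, overlapped control and changed NME1 by -0.36 (SE 0.196, adjusted p = 0.132). The readthrough gene NME1-NME2 covers 18.6% of the exon length of NME1 on the same strand.

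DTYMK, which phosphorylates dTMP (chr2:241675742-241686991, minus strand), had 65.4, 81.2, 59.5 and 93.8 CPM in control, 65.1, 76.2, 64.4 and 78.9 CPM with PI103, 56.4, 63.9, 74.5 and 56.8 CPM with oxozeaenol and 62.1, 67.4, 62.9 and 68.9 CPM with both. These overlapped, and none was called (adjusted p = 0.777, 0.295 and 0.41). PD0325901 gave 43.0, 24.2, 54.8 and 51.6 CPM and a fall of 0.79 (SE 0.200, adjusted p = 0.00165). PI103 plus PD0325901 gave 41.6, 25.3, 47.9 and 48.9 CPM and a fall of 0.87 (SE 0.200, adjusted p = 0.000542). DCTD, which deaminates dCMP, made small moves: it fell by 0.24 (SE 0.0701, adjusted p = 0.00457) under PD0325901 and by 0.38 (SE 0.0702, adjusted p = 3.34e-05) with PI103 plus PD0325901. It also fell by 0.18 with PI103 (adjusted p = 0.0351) and with PI103 plus oxozeaenol (adjusted p = 0.0322). The first of these DCTD calls was lost without PD0325901 replicate 2 (adjusted p = 0.0592). The PI103 call was lost without control replicate 1 or 4 or PI103 replicate 2, 3 or 4 (up to 0.116), and the PI103 plus oxozeaenol call without control replicate 1 or 4 or replicate 1, 3 or 4 of the combination (up to 0.11).

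Salvage genes counted 2 lower and 1 higher of 7 with PI103, the same with PD0325901, 1 and 3 with oxozeaenol, 1 and 3 with PI103 plus oxozeaenol, and 3 and 0 with PI103 plus PD0325901. The lower shares of 28.6% with each of the first 2 lie near the 25.2% and 29.9% of all genes. The higher share of 42.9% in both groups with oxozeaenol stands beside 25.7% and 27.7%, and the lower share of 42.9% with PI103 plus PD0325901 beside 32.6%. UCK2, a uridine-cytidine kinase (chr1:165827531-165911618, plus strand), had 158, 157, 146 and 158 CPM in control, and each treated group lay below it. The levels were 121, 131, 116 and 120.1 CPM with PI103, 109, 72.4, 108 and 102 CPM with PD0325901 and 134, 129, 138 and 103 CPM with oxozeaenol. They were 121, 130.2, 123 and 120.3 CPM with PI103 plus oxozeaenol and 91.1, 69.4, 91.5 and 90.5 CPM with PI103 plus PD0325901. UCK2 fell by 0.34 (SE 0.109, adjusted p = 0.0109) under PI103, 0.66 (SE 0.110, adjusted p = 1.22e-05) under PD0325901 and 0.30 (SE 0.110, adjusted p = 0.0261) under oxozeaenol. With PI103 plus oxozeaenol the fall was 0.32 (SE 0.109, adjusted p = 0.014), and with PI103 plus PD0325901 it was 0.85 (SE 0.110, adjusted p = 2.16e-07). The oxozeaenol call was lost without control replicate 1, 2 or 4 or oxozeaenol replicate 4 (adjusted p up to 0.123). UCK1, its paralog, rose in the groups with oxozeaenol, by 0.22 (SE 0.0937, adjusted p = 0.0469) alone and 0.23 (SE 0.0934, adjusted p = 0.04) with PI103. Those UCK1 calls were lost without any 1 control replicate or oxozeaenol replicate 2 or 4 (adjusted p up to 0.12), and without control replicate 1, 2 or 3 or replicate 1 or 4 of the combination (up to 0.17).

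DCK, the kinase for deoxycytidine (chr4:70992538-71030914, plus strand), had 93.9, 115, 109 and 93.5 CPM in control, 113, 85.1, 116 and 115 CPM with PI103 and 85.8, 69.1, 84.6 and 123 CPM with PD0325901. It had 126, 137, 182 and 193 CPM with oxozeaenol and 136, 144, 140.1 and 173 CPM with PI103 plus oxozeaenol, above all controls. DCK rose by 0.63 (SE 0.183, adjusted p = 0.00576) under oxozeaenol and by 0.53 (SE 0.183, adjusted p = 0.0172) under the combination. The second call was lost without replicate 4 of control or of the combination (adjusted p up to 0.0591). PI103 plus PD0325901 gave 84.4, 70.6, 113 and 138 CPM, a change of -0.02 (SE 0.182, adjusted p = 0.93). The changes with PI103 and PD0325901 alone were 0.06 (adjusted p = 0.805) and -0.18 (adjusted p = 0.406).

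TK1, the S-phase thymidine kinase (chr17:78174075-78187233, minus strand), had 183, 171, 161 and 187 CPM in control. PI103 gave 252, 278, 229 and 231 CPM, a rise of 0.49 (SE 0.139, adjusted p = 0.00435), and PI103 plus oxozeaenol gave 281, 264, 266 and 238 CPM, a rise of 0.58 (SE 0.139, adjusted p = 0.00103). Neither group overlapped control. Oxozeaenol gave 246, 222, 221 and 175 CPM, a change of 0.30 (SE 0.139, adjusted p = 0.0749). PD0325901 alone (169.8, 121, 192 and 155 CPM) and with PI103 (189, 107, 177 and 161 CPM) overlapped control, where TK1 changed by -0.14 (adjusted p = 0.405) and -0.15 (adjusted p = 0.363). TK2, the mitochondrial form and at 1.11 CPM per kb the least abundant member, rose by 0.33 (SE 0.111, adjusted p = 0.0132) with PD0325901. With PI103 plus PD0325901 TK2 changed by 0.25 (SE 0.111, adjusted p = 0.051, or 0.043 with the replicate block). Genes on the opposite strand cover 21.9% of its exon length.

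HPRT1, which returns hypoxanthine and guanine to the purine pool (chrX:134460153-134520513, plus strand), had 94.7, 112, 99.1 and 93.9 CPM in control. It had 71.9, 61.1, 84.2 and 92.8 CPM with PD0325901 and 61.8, 60.8, 84.1 and 91.3 CPM with PI103 plus PD0325901, just clear of the controls. Oxozeaenol gave 108, 126, 152 and 130.2 CPM, with 1 library inside the control range. HPRT1 fell by 0.37 (SE 0.128, adjusted p = 0.0156) under PD0325901 and by 0.43 (SE 0.128, adjusted p = 0.00507) with PI103 plus PD0325901, and rose by 0.37 (SE 0.127, adjusted p = 0.0184) with oxozeaenol. The fall with PD0325901 alone was lost without control replicate 2 or PD0325901 replicate 1 or 2 (adjusted p up to 0.0952), and the rise without control replicate 4 or oxozeaenol replicate 3 (up to 0.0886). PI103 gave 88.2, 78.1, 87.7 and 93.1 CPM and PI103 plus oxozeaenol 97.5, 108, 106 and 112 CPM, with adjusted p = 0.185 and 0.608. APRT, which salvages adenine, fell by 0.24 (SE 0.0932, adjusted p = 0.0321) under PI103 and by 0.32 (SE 0.0933, adjusted p = 0.00393) with PI103 plus PD0325901. The first APRT call was lost without control replicate 1 or 4 or PI103 replicate 1, 3 or 4 (adjusted p up to 0.113).

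Some calls against control depended on the scaling, the filter or the groups fitted. With upper-quartile scaling, the combination of PI103 and PD0325901 changed ADSS by -0.17 (adjusted p = 0.0894), RRM1 by -0.20 (0.158), APRT by -0.18 (0.0853) and HPRT1 by -0.28 (0.0501), and these falls were no longer called. DUT (0.44, adjusted p = 0.0328), CTPS2 (0.28, 0.000389) and TK2 (0.40, 0.00526) were then called higher in that group. The same scaling ended the calls of DCTD and APRT with PI103, of ADSS, UMPS, DCTD and HPRT1 with PD0325901, of UCK2 with oxozeaenol and of PFAS and DCTD with PI103 plus oxozeaenol (adjusted p up to 0.215). Without the count filter, IMPDH1 and CTPS2 were lost with PI103, PRPS2 and UCK1 with oxozeaenol, and CTPS2, RRM2, UCK1 and DCK with PI103 plus oxozeaenol (up to 0.237). With only the groups compared, DCTD was lost with PI103, ADSS, UMPS and DCTD with PD0325901, UCK1 with oxozeaenol and RRM1 with PI103 plus PD0325901 (up to 0.157).

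The single agents were also compared directly. Of 32 members, 22 (68.8%) were lower and 1 (3.12%) higher with PD0325901 than with oxozeaenol, beside 13.4% and 15.1% of all genes. The largest differences were in DUT, at -0.97 (SE 0.181, adjusted p = 0.000403), RRM2, at -0.83 (SE 0.138, adjusted p = 0.000105), DCK, at -0.82 (SE 0.183, adjusted p = 0.00209), and HPRT1, at -0.73 (SE 0.128, adjusted p = 0.000163). The count was 10 without PD0325901 replicate 2, 14 without oxozeaenol replicate 1 and 13 without oxozeaenol replicate 3, where the total with all libraries was 23, and 13 when only these 2 groups were fitted. Of all genes, 16.9%, 28.5%, 21.6% and 17.8% were called in these reduced fits, in that order, and 28.5% with all libraries. With the replicate block PRPS2 and UCK1 were also called lower with PD0325901 and CTPS2 higher (adjusted p = 0.0218, 0.0434 and 0.0382, where the unblocked values were 0.1, 0.0543 and 0.0905). PI103 against PD0325901 gave 15 (46.9%) higher and 2 (6.25%) lower with PI103, beside 21.7% and 22.9% of all genes. PFAS, DUT (0.87, SE 0.181, adjusted p = 0.000358), DTYMK (0.71, SE 0.200, adjusted p = 0.00552) and RRM2 (0.69, SE 0.138, adjusted p = 0.000212) were the largest, and CMPK1 was lower with PI103 by 0.73 (SE 0.137, adjusted p = 9.41e-05). PAICS was also called higher with PI103 under the block (0.27, adjusted p = 0.0232, against 0.0563). PI103 against oxozeaenol gave 8 (25%) lower and 4 (12.5%) higher, beside 22.5% and 20.6%, so the lower share was near that of all genes. CTPS, at -0.45 (SE 0.105, adjusted p = 0.00108), and HPRT1, at -0.57 (SE 0.128, adjusted p = 0.000815), were lower with PI103, and each held in the fits with 1 library left out. Under the block PPAT, GART and PAICS were also called lower with PI103 than with oxozeaenol (adjusted p = 0.0203, 0.0488 and 0.0341, where the unblocked values were 0.0503, 0.0559 and 0.0653). The concentrations of the 3 agents differ and are not matched for effect.

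Most members were lower with PI103 plus PD0325901 than with PI103 alone. The combination held PI103 at 50% of its single concentration, so this comparison differs in PI103 as well as in PD0325901. Against PI103, 25 (78.1%) were lower in the combination and 1 (3.12%) higher, beside 19.9% and 18.8% of all genes, and the 12 purine and 7 deoxynucleotide genes were all among the lower. Of these, DUT and DCTD were lost with upper-quartile scaling (adjusted p = 0.0528 and 0.0947) and without the count filter (0.0547 and 0.0592). Against PD0325901, 6 (18.8%) were lower and 0 higher, beside 18.1% of all genes called (10.0% and 8.06%). These were PRPS1, GART, IMPDH2, CTPS, NME1 and APRT, with GART lower by 0.44 (SE 0.0985, adjusted p = 0.00292) and NME1 lower by 0.61 (SE 0.198, adjusted p = 0.0352). That count of 6 was 12 without PD0325901 replicate 2, 3 without replicate 1 or 2 of the combination, 1 without PD0325901 replicate 3, and 1 when only these 2 groups were fitted. Of all genes, 22.1%, 10.9%, 19.0%, 9.84% and 9.12% were called in these fits, in that order. Of the 6 calls, GART alone held in each fit with 1 library left out. NME1 was lost without replicate 1 or 2 of the combination or PD0325901 replicate 3 or 4 (adjusted p up to 0.125), as was PRPS1 (up to 0.0878). IMPDH2 was lost without PD0325901 replicate 1, 3 or 4 or replicate 1, 2 or 4 of the combination (up to 0.139), CTPS without PD0325901 replicate 1 or 3 or replicate 2 of the combination (up to 0.0877), and APRT without PD0325901 replicate 3 (0.0597). GMPS and UMPS were also called lower with the replicate block (adjusted p = 0.0392 and 0.0327, where the unblocked values were 0.116 and 0.06).

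Each agent was used at 50% in the combinations, and the mean log2 change of the 2 single agents served as a reference level. It is a fair reference only where log2 change is proportional to concentration, which was not tested. The 5 ERK target genes had a median change of -4.1 with PD0325901 and -4.42 with PI103 plus PD0325901. Between these groups 0 of the 5 were called, yet 4 were called below the mean (median difference -1.76). A call below the mean is therefore not by itself a sign of more change than the single agents give. Under PI103 plus PD0325901, 16 (50%) of the members were below that mean and 0 above it, beside 11.1% and 10.8% of all genes. They were 10 purine genes, DHODH, UMPS and CTPS, DCTD and NME1, and UCK2. NME1 lay 0.67 below the mean (SE 0.176, adjusted p = 0.00888), IMPDH2 0.55 below (difference -0.55, SE 0.0986, adjusted p = 0.000354), PFAS at -0.54 (SE 0.137, adjusted p = 0.00695), DHODH at -0.53 (SE 0.121, adjusted p = 0.0028) and GART at -0.49 (SE 0.0869, adjusted p = 0.000299). Without replicate 2 of the combination the count was 9, beside 10.4% of all genes called, where all libraries gave 22.0%. NME1 (adjusted p = 0.0636), PPAT (0.0873), PAICS (0.079), GMPS (0.127) and UCK2 (0.0819) were then no longer called, nor were IMPDH1 and DCTD. IMPDH1 was also lost without PI103 replicate 2 or 4, PD0325901 replicate 1 or 3 or replicate 3 or 4 of the combination (adjusted p up to 0.186), and DCTD without PI103 replicate 1, 2 or 3, PD0325901 replicate 1 or 3 or replicate 3 or 4 of the combination (up to 0.146). Without replicate 2 of both groups with PD0325901 the count was 14, beside 17.6% of all genes called. With the replicate block PRPS2, ADSS and APRT were also called (adjusted p = 0.008, 0.0342 and 0.0447, where the unblocked values were 0.06, 0.12 and 0.0532), as were RRM1, DTYMK and TK1 (adjusted p = 0.0177, 0.0466 and 0.028, where the unblocked values were 0.0596, 0.0733 and 0.0573).

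**Figure D3:**
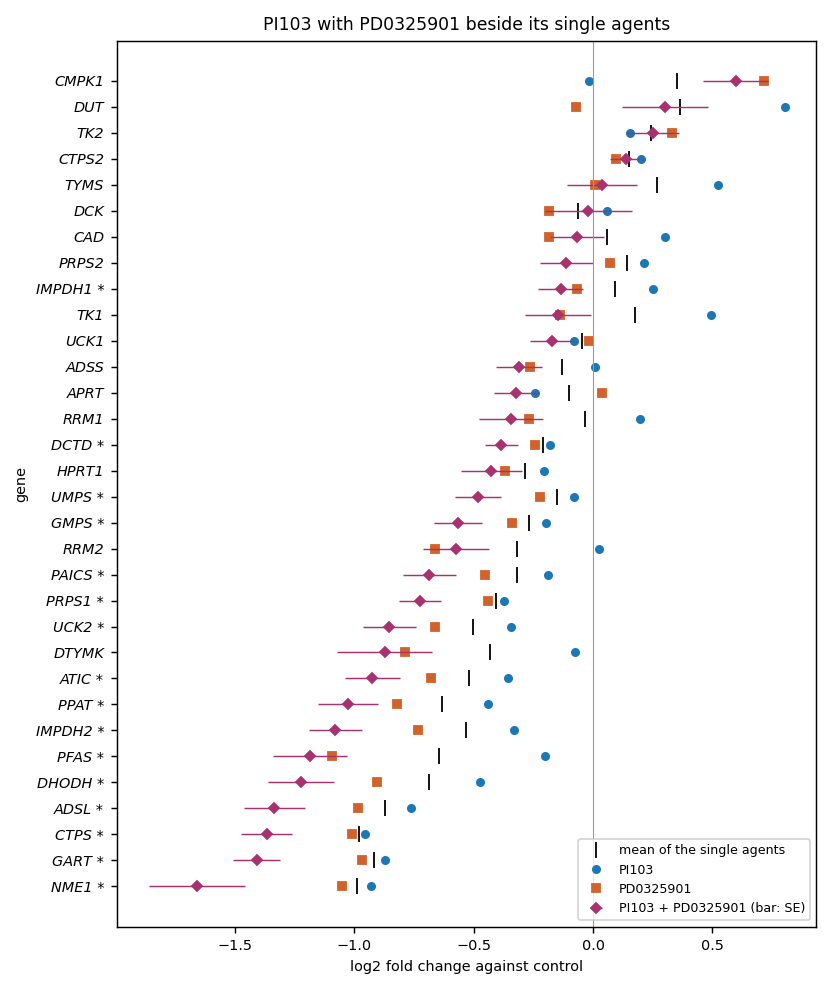
Log2 fold change against control of each member with PI103 (circles), PD0325901 (squares) and PI103 plus PD0325901 (diamonds with SE bars), with the mean of the single agents as a tick. An asterisk marks the 16 members called below that mean by edgeR's quasi-likelihood test, and none was called above it. NME1, GART, CTPS and ADSL show the lowest values.

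PI103 plus oxozeaenol was set against the mean of its single agents in the same way. By edgeR's quasi-likelihood test 0 members were called in either direction, near the 3.98% of all genes (1.1% lower, 2.88% higher). That count therefore does not set the members apart from other genes. At an unadjusted p under 0.05 there was 1 member, IMPDH2, and its adjusted p was 0.218. DESeq2 and the fit with the replicate block also called 0, beside 5.74% and 7.15% of all genes. Against PI103, 1 member was lower (IMPDH2) and 3 higher (CTPS, APRT and UCK1), shares of 3.12% and 9.38% beside 18.3% of all genes called (8.92% and 9.39%). Against oxozeaenol, 0 were lower and 1 was higher (CTPS2, 0.23, SE 0.0694, adjusted p = 0.0239), beside 7.28% and 7.59%. CTPS2 was lost without oxozeaenol replicate 3 or 4 or replicate 1, 2 or 3 of the combination (adjusted p up to 0.0963). With the replicate block NME1 was called lower here too (-0.51, adjusted p = 0.0345, against 0.0767). CTPS was higher with the combination than with PI103 by 0.35 (SE 0.105, adjusted p = 0.0204), a call lost without PI103 replicate 3 or 4 or replicate 2 of the combination (adjusted p up to 0.0672). IMPDH2 was lower by 0.39 (SE 0.111, adjusted p = 0.0148), lost without PI103 replicate 2 or replicate 4 of the combination (up to 0.0689). The call of APRT was lost without replicate 1 or 3 of PI103 or of the combination (up to 0.0879), and that of UCK1 without replicate 1 of either group (up to 0.0925). With the replicate block DCK was also called higher than with PI103 (0.47, adjusted p = 0.0135, against 0.0778).

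Cell cycle genes were measured in the same libraries. Of 24 genes of S phase and E2F control, PI103 lowered 2 and raised 13, PD0325901 lowered 7 and raised 2, and oxozeaenol lowered 0 and raised 16. PI103 plus oxozeaenol lowered 0 and raised 19, and PI103 plus PD0325901 lowered 6 and raised 1. The raised shares of 54.2%, 66.7% and 79.2% with PI103, oxozeaenol and both stand beside 26.2%, 25.7% and 27.7% of all genes. The lowered shares of 29.2% and 25% in the groups with PD0325901 stand near or below the 29.9% and 32.6% of all genes. Of 20 mitosis genes, 0 fell and 8 rose with PI103, a share of 40% beside 26.2%, and 10 fell and 0 rose in each group with PD0325901, a share of 50% beside 29.9% and 32.6%. Oxozeaenol gave 2 lower and 1 higher, and PI103 plus oxozeaenol 1 and 3. These shares of 10% and 5%, and of 5% and 15%, lie below those of all genes. The latter were 26.1% and 25.7% with oxozeaenol and 27.9% and 27.7% with PI103 plus oxozeaenol. As a mean log2 difference from control, the S phase list stood at -0.49 and the mitosis list at -0.96 in replicate 2 with PD0325901, and at -0.63 and -1.41 in replicate 2 of PI103 plus PD0325901. The deoxynucleotide genes stood at -0.93 and -1.03 in the same 2 libraries, and between -0.47 and -0.22 in the other 6 libraries of those groups. The part of cell cycle phase in these results was not tested. In bulk RNA, fewer cells in S phase and less RNA per cell cannot be told apart.

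**Figure D4:**
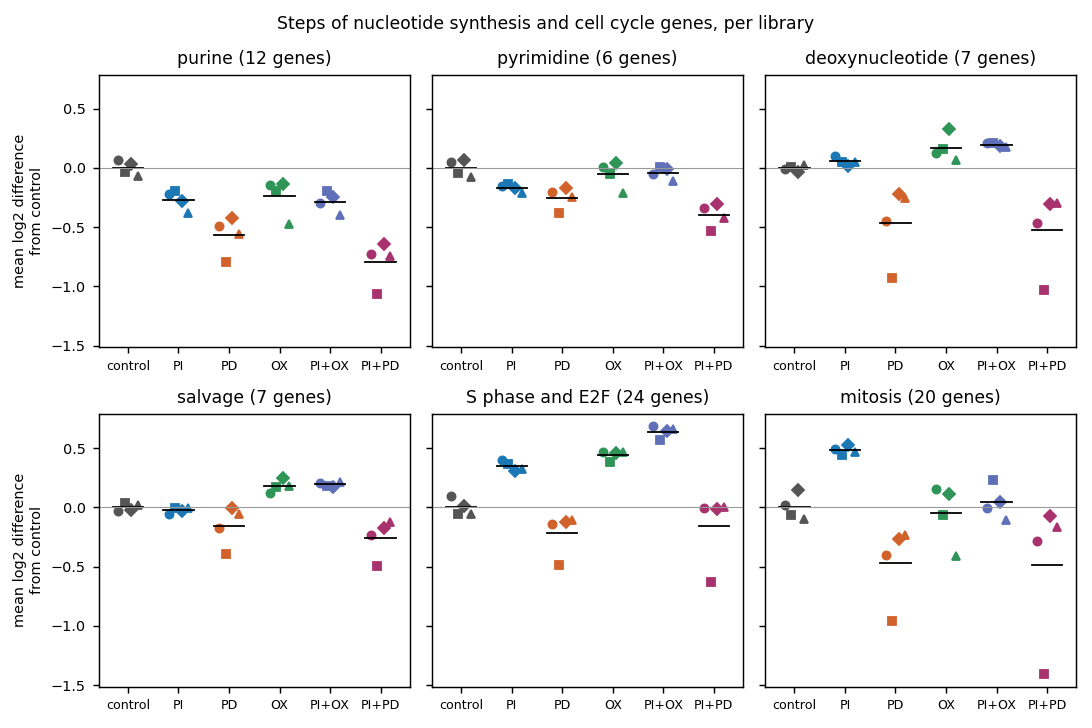
Mean log2 difference from the control mean, log2(CPM + 0.5), per library (points, shapes by replicate) and group (line) for the 4 steps and the S phase and mitosis lists. PI is PI103, PD is PD0325901 and OX is oxozeaenol. Replicate 2 (square) is the lowest point of both groups with PD0325901 in each of the 6 panels.

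The folate genes supply carbon to the purine ring and to dTMP. Of 16, 5 fell and 3 rose with PI103, 7 and 3 with PD0325901, 4 and 4 with oxozeaenol, 5 and 4 with PI103 plus oxozeaenol and 9 and 4 with PI103 plus PD0325901. The shares with PI103 (31.2% lower, 18.8% higher) and oxozeaenol (25% each way) lie near those of all genes, and the 43.8% and 56.2% lower in the groups with PD0325901 stand beside 29.9% and 32.6%. Genes of the mitochondrial arm are given here after their values were seen: the log2 changes of MTHFD2 were -3.21 under PI103, -1.54 under PD0325901, -1.27 under oxozeaenol, -2.51 under PI103 plus oxozeaenol and -3.47 under PI103 plus PD0325901. Those of SHMT2 were -1.96, -1.09, -1.03, -1.77 and -2.49 in the same order, and those of MTHFD1L -1.71, -1.64, -1.28, -1.74 and -2.54, and all 15 were called lower. Others on the list rose, and FOLR1, a folate receptor, changed most in that direction, by 1.01, 2.21, 2.05, 2.06 and 2.28 in the order PI103, PD0325901, oxozeaenol, PI103 plus oxozeaenol and PI103 plus PD0325901.

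Known regulators of these genes were measured beside them. MYC went from 293 ± 34.3 CPM in control to 144 ± 10.7 CPM with PI103, 89.5 ± 15.6 CPM with PD0325901 and 119 ± 14.2 CPM with oxozeaenol (SD, n = 4). It had 156 ± 8.66 CPM with PI103 plus oxozeaenol and 112 ± 12.8 CPM with PI103 plus PD0325901, and was called lower in each comparison with control (-1.03, -1.71, -1.29, -0.91 and -1.39). ATF4, which acts on purine and folate genes downstream of mTOR, was called lower in each, at -1.19, -0.69, -0.46, -0.99 and -1.46 in that order of treatments. MXD4, of the MYC antagonist family, rose by 2.59 under PD0325901, 1.58 under oxozeaenol, 1.17 under PI103 plus oxozeaenol and 2.21 under PI103 plus PD0325901, and changed by 0.42 with PI103 (adjusted p = 0.0672). Of its relatives, MXD1 was called lower with each single agent and with PI103 plus oxozeaenol, and MXD3 was called higher with PI103, oxozeaenol and both combinations. E2F1 rose by 0.65 with PI103, 0.71 with oxozeaenol and 1.08 with both, and changed by -0.07 with PD0325901. Mean CPM in control, PD0325901 and PI103 plus PD0325901 were 28.8, 27.4 and 33.7 for E2F1 and 9.04, 9.40 and 12.5 for E2F2. In the same order they were 74.2, 51.3 and 54.5 for E2F3, 22.4, 15.7 and 14.9 for NRF1 and 226.5, 145.5 and 129 for TFAM. MAX, MXI1 and MNT, also among the 13 listed regulators, are not described. Whether these levels bear on the members was not tested.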

How the data were processed

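The authors deposited whole-number read counts per gene symbol for 24 libraries, made with a stranded mRNA kit from 0.8 µg of total RNA per the labels. The submitters' processing notes name GRCh38, and the aligner, counter, annotation and use of strand are not given in the sources used here. Tallies of unassigned reads were left out: no feature 4.24% to 8.57%, ambiguous 1.57% to 2.01%, not unique 4.64% to 6.06% of a library's tallied reads. Groups come from the sample titles. Counts were kept by filterByExpr, scaled by TMM and fitted in edgeR 4.0.16 (R 4.3.3; robust quasi-likelihood, 1 coefficient per group, two-sided F test, 14 comparisons), with a common biological coefficient of variation of 0.131. Each SE was computed from the log2 fold change and its F statistic. The CPM use TMM-scaled library sizes. In simulated data the fit recovered fewer of the changed genes than first required, and the requirement was lowered after that. Libraries held 38057638 to 84226380 counts in genes, and the lowest count of a member in a library was 225.

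Alternatives were RLE and upper-quartile scaling, no count filter, DESeq2 1.42.0, only the groups compared, the replicate number as a block, and each replicate left out. Leaving out replicate 2 of both PD0325901 groups was chosen after seeing the data. The labels' batch equals the replicate number and pairs the samples: 60 same-numbered pairs of libraries had a mean correlation of deviations of 0.12 (47 positive), beside -0.04 for 180 other pairs. Deviations were taken from each group's own mean. The value for the other pairs therefore follows largely from the first and is no separate comparison. The design text calls the replicates biological, and nothing more is said of separate cultures.

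The 32 members and the gene lists were chosen with earlier results of these data known. Full values are given for the 3 members of each step with the largest called change against control, and for members called in both directions. Gene positions and overlaps are from GENCODE release 29, and per-length levels use its exon length.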

Additional observations from a re-analysis of the deposited data

Results flagged for a closer look

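In groups of 4 libraries, the gap between the extreme library and its nearest neighbour was divided by the range of the group and members with a ratio above Dixon's 95% critical value are listed. This held for 17 of 192 groups, where chance gives about 1 in 20. In replicate 2 of PI103 plus PD0325901, PPAT had 28.996 CPM (the others 42.5 to 43.6), RRM2 119 CPM (213 to 215), TYMS 152 CPM (272 to 283) and UCK2 69.4 CPM (90.5 to 91.5). In replicate 2 of PD0325901, GART had 143 CPM (179 to 181) and RRM2 137 CPM (190.2 to 193). The S phase and mitosis genes were also lowest in these 2 libraries, and their part in the values was not tested.

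In replicate 4 of oxozeaenol, IMPDH2 had 176 CPM (235 to 246), ADSS 137 CPM (171 to 176) and DHODH 6.62 CPM (8.83 to 9.28). In replicate 4 of PI103 plus oxozeaenol, GMPS had 119 CPM (139 to 140.3) and ADSS 149 CPM (177 to 179). With PI103, PRPS2 had 102 CPM in replicate 4 (131 to 132), UCK1 13.037 CPM in replicate 1 (14.4 to 14.6) and DCK 85.1 CPM in replicate 2 (113 to 116). Among the controls, UMPS had 72.3 CPM in replicate 2 (79.6 to 80.2), UCK2 145.9 CPM in replicate 3 (157 to 158), and CTPS was the high value, 189 CPM in replicate 1 (177 to 178).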

How the results depend on the processing

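None of the values reversed under the alternatives run. The count of 23 members called between PD0325901 and oxozeaenol was 13 when only these groups were fitted, and 10 to 24 when 1 library was left out. Of all genes, 28.5% were called with all libraries, 17.8% with only these groups and 16.9% to 30.4% with 1 library left out. For PI103 plus oxozeaenol against PI103, 4 members became 2 without the count filter, 10 with only these groups, and 2 to 3 with 1 library left out. The share of all genes went from 18.3% to 11.3%, 30.9% and 13.2% to 16.1% in that order. For this combination against oxozeaenol, 1 became 0 without the filter, 2 with DESeq2, 2 with the replicate block, and 0 to 2 with 1 library left out. Here the share of all genes went from 14.9% to 8.69%, 18.0%, 22.2% and 7.46% to 18.2%. For PI103 plus PD0325901 against PD0325901, 6 became 1 with only these groups and 1 to 12 with 1 library left out. All genes went from 18.1% to 9.12% and 9.84% to 22.1% there. Against the mean of its single agents, 16 became 9 to 23 with 1 library left out. All genes went from 22.0% to between 10.4% and 28.2%. Over 448 values of single members and comparisons, DESeq2 added 16 calls and lost 0, RLE scaling added 1, upper-quartile scaling added 11 and lost 20, dropping the filter lost 22, fitting only the groups compared added 13 and lost 25, and the block added 24 and lost 0. Apart from these 24 additions, the block changed no other call of a member. Upper-quartile scaling called 61.0% of the called genes higher with PI103 plus PD0325901 against control, where TMM gave 49.6%. Leaving out 1 library added 52 calls and lost 234 over 3840 values of members, and leaving out replicate 2 of both PD0325901 groups added 6 and lost 17 over 224.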

Other observations

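Of 42 listed genes that interconvert, break down or carry nucleotides, 38 were tested, and 10 fell and 6 rose with PI103, 10 and 14 with PD0325901, 5 and 13 with oxozeaenol, 10 and 10 with PI103 plus oxozeaenol and 16 and 10 with PI103 plus PD0325901. The lower shares were 26.3%, 26.3%, 13.2%, 26.3% and 42.1%, beside 25.2%, 29.9%, 26.1%, 27.9% and 32.6% of all genes. The higher shares were 15.8%, 36.8%, 34.2%, 26.3% and 26.3%, beside 26.2%, 28.7%, 25.7%, 27.7% and 32.2%. UPP1, which cleaves uridine, changed by -1.63, -1.64, -1.196, -1.44 and -2.27 on the log2 scale in that order, called lower each time. CMPK2, a mitochondrial kinase for UMP and CMP, rose by 2.00, 2.10, 1.76, 2.46 and 3.02. AMPD3, which deaminates AMP, rose by 4.52 with PD0325901 and by 4.55 with PI103 plus PD0325901, and changed by 0.16 with PI103, where its adjusted p missed the threshold. SLC29A1, an equilibrative nucleoside transporter, fell by 1.08 and 1.14 in the groups with PD0325901. These genes were picked from the list after their values were seen.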
